A study of Mus musculus with 61 samples.

Results

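Glycine transmission in the mouse brain was followed through 5 genes: Slc6a5, Slc6a9, Glra1, Glra2 and Glrb. They were chosen by name for their function, from 16358 genes named on the array, with earlier results of these data known. The shares of all probes set beside counts of members are therefore a description. Each gene was represented by 1 of the 41174 non-control probes, matched through its RefSeq accession. All 5 were above background on at least 1 array and so were among the 36558 probes tested.

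Glycine is the fast inhibitory transmitter of spinal cord and brainstem, and it is also a co-agonist of NMDA receptors throughout the brain. Slc6a5 encodes GlyT2, which loads glycine back into the terminals of glycinergic neurons and marks these cells. Slc6a9 encodes GlyT1, a transporter found mainly on glia that clears glycine around synapses. Glra1 and Glra2 encode the α1 and α2 subunits of the glycine receptor, of which α1 is the main subunit of the adult brainstem and spinal cord and α2 is best known from the developing nervous system. Glrb encodes the β subunit, which ties the receptor to the scaffold protein gephyrin at the synapse.

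The samples were 61 fractions of 6 brains from male C57BL/6J mice aged 8 weeks, all perfused with RNAlater. A fraction was a slab 1 mm thick, collected as 200 sections of 5 µm, and its RNA was hybridized to 1 single-color array. One mouse each was cut in the sagittal (S, 9 fractions), coronal (C, 13) and horizontal (H, 6) plane, and another in a slightly oblique version of each plane (So, 10; Co, 16; Ho, 7). No genotype or agent was compared, and every fraction held all structures cut by that slab, so that fewer expressing cells and less RNA per cell cannot be told apart. All levels are log2 signals relative to the 75th percentile of the array, and since every gene had its own probe, levels are compared between fractions of 1 gene and not between genes.

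The labels number the fractions of S from 2 to 10, which are called S1 to S9 here. The 28 pairs set by the study join fractions of both mice of a plane whose signals over all probes correlated best, with the anatomical order deciding where several matched 1 partner, so that the spread within pairs was selected to be small. They run from caudal to rostral (c1 to c13), dorsal to ventral (h1 to h6) and left to right (s1 to s9), and they left 5 fractions (Co1, Co13, Co16, Ho1, So1) unpaired. The coronal orientation was checked with markers, and the other directions were taken from the study's methods. Hoxb5, a Hox gene of the caudal hindbrain, was highest in C1 and Co2, Pcp2 of cerebellar Purkinje cells in C3 and Co5, the dopamine transporter gene Slc6a3 in C6 and Co7, and Tbx21 of olfactory bulb projection neurons in C13 and Co15. Between 57.9% and 73.0% of probes were well above background per array, and the arrays lay on 16 slides read on 5 scan days, with C and Co on different days.

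The upstream sequence of Slc6a5, whose level followed the caudal axis most steeply, is shown beside those of other members. These are Slc6a9, also higher caudally, Glra2, lower caudally, and Glrb, which stayed nearly level. Each is the stretch of 250 bases before a RefSeq transcript start on GRCm38.p6, read on the gene's strand from 5′ to 3′, and capitals mark matches on either strand. The letters searched were TATAAA for the TATA box and GGGCGG for the GC box, together with CCAAT for the CCAAT box and TAATTA for a core bound by homeodomain proteins. TTCAGCACC stood for a part of the RE1 element, and no match overlapped another. The windows of Slc6a5 and Glra2 lie inside the annotated span of the gene, before a listed transcript start and not before the outermost one.
Slc6a5 promoter, chr7:49910049-49910298 (+ strand): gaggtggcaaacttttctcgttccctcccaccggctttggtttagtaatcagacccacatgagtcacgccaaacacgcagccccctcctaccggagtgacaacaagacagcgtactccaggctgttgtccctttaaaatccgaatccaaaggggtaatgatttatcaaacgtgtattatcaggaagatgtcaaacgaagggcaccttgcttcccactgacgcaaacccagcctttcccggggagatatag
Slc6a9 promoter, chr4:117835008-117835257 (+ strand): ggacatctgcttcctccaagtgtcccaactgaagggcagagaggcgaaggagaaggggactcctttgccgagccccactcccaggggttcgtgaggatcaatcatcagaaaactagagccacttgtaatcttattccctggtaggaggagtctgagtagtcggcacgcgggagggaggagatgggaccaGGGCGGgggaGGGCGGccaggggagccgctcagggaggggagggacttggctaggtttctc
Glra2 promoter, chrX:165327394-165327643 (- strand): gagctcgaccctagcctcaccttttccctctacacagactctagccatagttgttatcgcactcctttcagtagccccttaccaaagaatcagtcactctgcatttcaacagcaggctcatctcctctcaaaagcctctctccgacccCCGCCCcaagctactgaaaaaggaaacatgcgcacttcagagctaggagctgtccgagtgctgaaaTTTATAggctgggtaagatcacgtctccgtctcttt
Glrb promoter, chr3:80913661-80913910 (- strand): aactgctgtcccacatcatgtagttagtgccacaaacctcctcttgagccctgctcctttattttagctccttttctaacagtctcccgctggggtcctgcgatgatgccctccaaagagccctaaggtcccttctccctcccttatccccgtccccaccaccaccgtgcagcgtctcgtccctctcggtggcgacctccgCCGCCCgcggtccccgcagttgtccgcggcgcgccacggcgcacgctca

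The windows differed in base composition. GC content was 50.4% for Slc6a5 and Glra2, 60.4% for Slc6a9 and 62.4% for Glrb, against a median of 52.4% over 32851 windows of the same length. The Slc6a5 window held none of the 5 motifs, and its second annotated start held none either. The 2 other annotated starts of Slc6a9 held none of them. GGGCGG, the GC box, matched at 2 places before Slc6a9 and at 1 each before Glra2 and Glrb, and 32.7% of all windows held it. TATAAA matched only before Glra2 among the sequences printed, and 12.4% of all windows held it. Of all windows, 33.8% held CCAAT, 4.84% held TAATTA and 0.301% held TTCAGCACC.

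Slc6a5 had the steepest profile of the 5 genes along the brain. Its gene lies at chr7:49906984-49963864, and its probe was well above background in 50 of 61 fractions. In mouse C its level was 1.74, 1.17, 1.11 and 0.88 in C1 to C4, −0.37 in C5, −4.11 in C6 and −5.47 in C7, and between −7.79 and −5.65 from C8 to C13. In mouse Co it was 1.77, 1.85, 0.98, 1.18 and 0.90 in Co1 to Co5, 0.07 in Co6, −1.83 in Co7 and −5.62 in Co8, and between −7.95 and −6.18 from Co9 to Co16. Both mice thus had a plateau in the caudal fractions, which hold medulla, pons and cerebellum, and a low level in front of it. The fractions not well above background were all rostral (C8, C9, C12, Co9 to Co13, Co15 and Co16), apart from S1 at the left edge of the sagittal series, so that rostral levels are at or near the limit of the array.

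The mean of Slc6a5 over c1 to c4 exceeded that over c5 to c13 by 6.76 ± 0.36 (log2, SE of the fit of 28 pairs, 95% interval 6.03 to 7.49, adjusted p = 2.24e-16, limma with Benjamini-Hochberg adjustment over all tested probes). The difference was 6.76 within C and 6.76 within Co. The groups did not overlap, with 0.88 to 1.85 in the 8 caudal arrays and −7.95 to 0.07 in the other 18, of which 10 were well above background. With normexp background correction, which adds an offset of 50 to every signal, and quantile normalization, the difference was 4.45.

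The pair means of Slc6a5 fell most from c5 to c7, but each mouse had its largest drop in a different step. From c5 to c6 the pair mean dropped by 2.82 and from c6 to c7 it dropped by 2.58, both more than the 95% half-width of 1.72, which was not adjusted over the steps. The step from c5 to c6 was −3.74 in C and −1.90 in Co, and that from c6 to c7 was −1.36 and −3.79. None of the other 10 coronal steps of Slc6a5 passed that width. Both mice also fell from c4 to c5 (−1.25 in C, −0.83 in Co) and from c7 to c8 (−1.18 and −1.49). The fractions of the steps from c5 to c7 shared a slide in each mouse (C5 to C8 on one, Co5 to Co8 on another). The step from c4 to c5 crossed slides in C (C4 to C5), and that from c7 to c8 crossed slides in Co (Co8 to Co9). The mice differed most in c6, where Co was higher than C by 2.27.

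**Figure D1:**
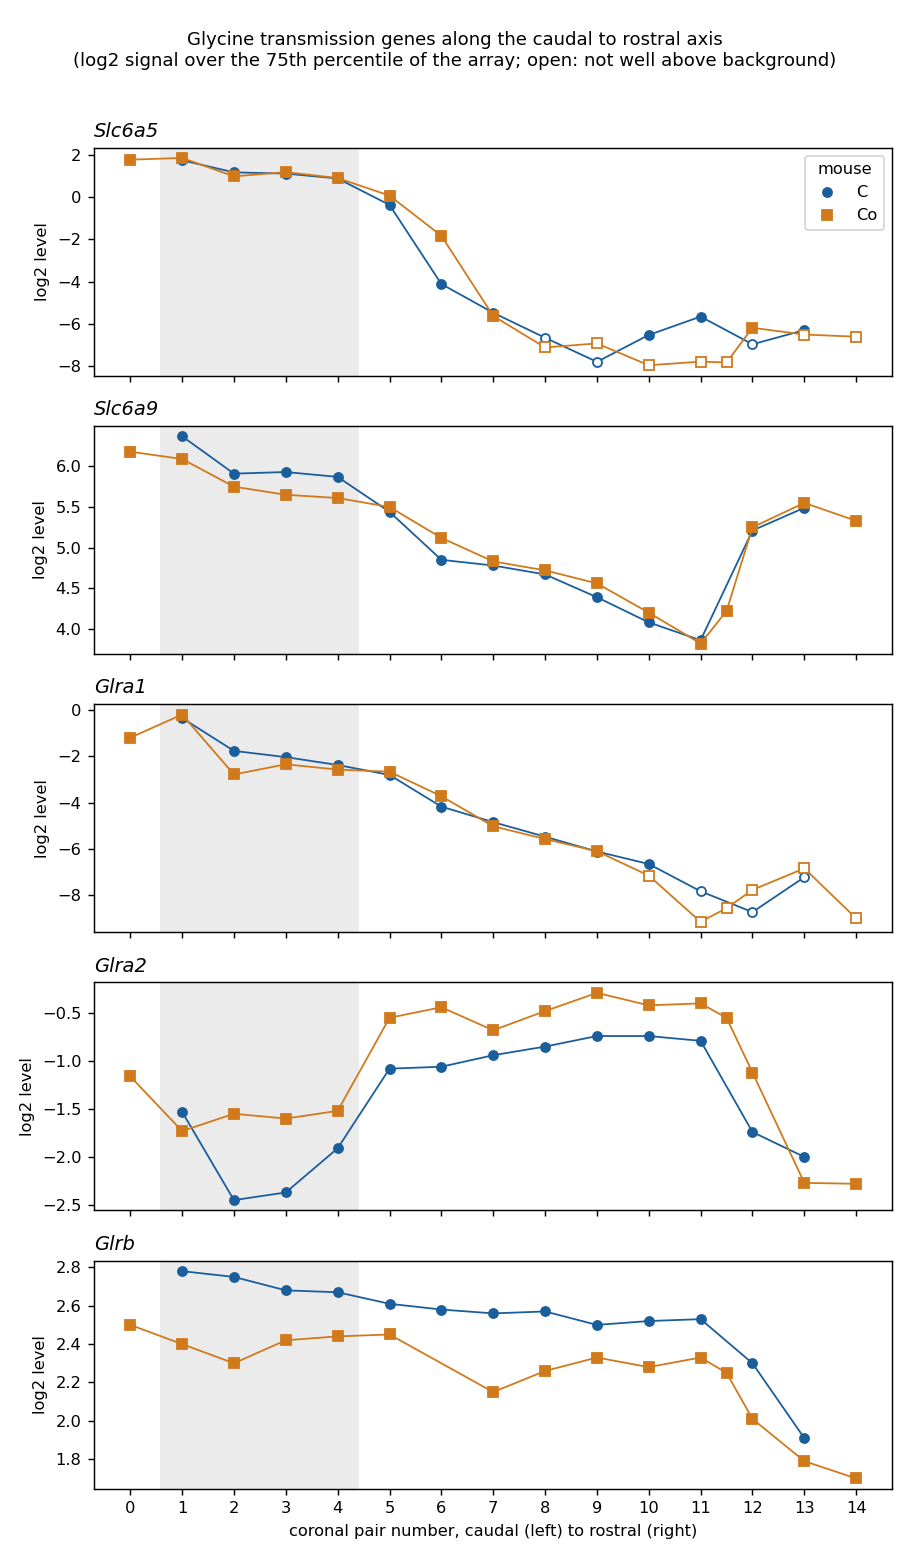
Level of each gene (log2 signal over the 75th percentile of the array, own scale per panel) against the coronal pair number from caudal to rostral, with mouse C as blue circles and Co as orange squares, open symbols for fractions not well above background, gray shading for c1 to c4, and the unpaired Co1, Co13 and Co16 placed at 0, between 11 and 12, and at 14. Slc6a5 stays between 0.88 and 1.85 in the shaded pairs and reaches −7.95, whereas Glrb stays between 1.70 and 2.78.

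Glra1 also was highest at the caudal end. The gene lies at chr11:55514239-55608198, and its probe was well above background in 42 of 61 fractions. In mouse C its level was −0.34 in C1, −1.76, −2.03 and −2.37 in C2 to C4, −2.80 in C5, −4.17 in C6, −5.47 in C8, −6.65 in C10 and −8.73 in C12. In mouse Co it was −1.19 in Co1, −0.19 in Co2, between −2.78 and −2.34 in Co3 to Co6, −5.02 in Co8, −6.10 in Co10 and −9.15 in Co12. The peak lay in C1 and Co2, which form pair c1, and the most rostral fractions of both mice (C11 to C13, Co11 to Co16) were not well above background. The step from c1 to c2 dropped by 2.01 and that from c10 to c11 dropped by 1.59, beyond the half-width of 1.34. The other 10 steps were within it, the 3 of them from c2 to c5 included, where the pair means were −2.27, −2.18, −2.47 and −2.73.

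The caudal mean of Glra1 exceeded the rest by 4.19 ± 0.28 (log2, SE, 95% interval 3.62 to 4.76, adjusted p = 5.55e-14, limma). It was 4.35 within C and 4.03 within Co. The groups overlapped slightly, since the caudal arrays ranged from −2.78 to −0.19 and the others from −9.15 to −2.66, of which 11 of 18 were well above background. With normexp and quantile normalization the difference was 2.10.

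Slc6a9 differed over a much smaller range, and its profile had a minimum in the forebrain. It lies at chr4:117835258-117869305, and its probe was well above background in all 61 fractions. Its level was 6.37 in C1 and 6.18 in Co1, declined to 3.86 in C11 and 3.82 in Co12, and was 5.21 and 5.49 in C12 and C13. Co14, Co15 and Co16 gave 5.25, 5.55 and 5.33. Both mice thus had a high caudal end, a low frontal level and a return at the rostral end, where the olfactory bulb markers peak. The step from c11 to c12 was 1.39 upward, beyond the half-width of 0.35, with 1.35 in C, whose C11 and C12 shared a slide, and 1.43 in Co, whose Co12 and Co14 did not.

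Slc6a9 was higher in the caudal pairs by 1.10 ± 0.07 (log2, SE, 95% interval 0.95 to 1.25), a fold of 2.15 (adjusted p = 5.20e-14, limma). It was 1.27 within C and 0.94 within Co. The 8 caudal arrays ranged from 5.61 to 6.37 and the other 18 from 3.82 to 5.55, without overlap. Slc6a5 and Slc6a9 were the members separated this way, as were 1.93% of the 35984 probes measured on all paired arrays.

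Glra2 was low at the caudal end, where Slc6a5 and Glra1 were highest. It lies at chrX:165129017-165327867, and its probe was well above background in all 61 fractions. Its level was −1.53, −2.45, −2.37 and −1.91 in C1 to C4, between −1.08 and −0.74 in C5 to C11, and −1.74 and −2.00 in C12 and C13. In Co it was between −1.73 and −1.16 in Co1 to Co5, between −0.68 and −0.29 in Co6 to Co13, −1.12 in Co14, and −2.27 and −2.28 in Co15 and Co16. The fractions from c5 to c11 therefore formed a plateau bounded by lower levels at both ends. The steps beyond the half-width of 0.70 were c4 to c5 (0.91 upward), c11 to c12 (dropped by 0.83) and c12 to c13 (dropped by 0.71).

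Glra2 was lower in the caudal pairs, with a difference of −0.91 ± 0.15 (log2, SE, 95% interval −1.21 to −0.62), a fold of 1.88 (adjusted p = 3.76e-06, limma). It was −0.96 within C and −0.86 within Co. The groups overlapped, with −2.45 to −1.52 against −2.27 to −0.29, because the olfactory end was as low as the caudal end.

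Glrb varied least. It lies at chr3:80843598-80913660, and its level was between 1.70 in Co16 and 2.78 in C1, a span of 1.08, against a median span of 2.12 over all tested probes. Its spot on Co7 was flagged as an outlier and left out, so that pair c6 rests on C6 alone. The probe was well above background in the other 60 fractions. In C the level was 2.78 in C1, 2.50 in C9 and 1.91 in C13, and in Co it was 2.50 in Co1, 2.33 in Co10 and 1.70 in Co16. It was lowest at the olfactory end in both mice, and none of its 12 coronal steps passed the half-width of its fit.

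The variation of Glrb over the 28 pairs did not pass the test (moderated F of 1.70 by limma, adjusted p = 0.117), but it did with the mouse as a block (adjusted p = 6.37e-04). The caudal difference was 0.21 ± 0.07 (log2, SE, 95% interval 0.06 to 0.35), a fold of 1.15 (adjusted p = 0.0172). This call was lost under 10 of the alternatives, among them without c12 and c13 (difference 0.11) and with arrays scaled to their median (difference 0.09). It was also lost when C1, C2, C3 or C4 was left out (adjusted p up to 0.0926). The call held under the other 12 alternatives, among them with the mouse as a block (difference 0.22, adjusted p = 1.69e-04, limma). The median of all tested probes was 0.13 with the 75th percentile and 0.01 with the median, so that the scaling alone moves a difference by about as much.

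The other 4 genes varied over the pairs (adjusted p between 1.02e-12 for Slc6a9 and 2.45e-05 for Glra2), as did 61.2% of all tested probes. With fractions paired by their own number the same 4 varied, at adjusted p = 3.54e-07 for Slc6a5 instead of 2.20e-12 and 0.0104 for Glra2. In the caudal comparison 4 members were higher and 1 was lower, against 31.1% and 20.6% of all probes. With so many probes called, a call alone does not set the members apart. The median difference of the 5 members was 1.10, and that of all tested probes was 0.13.

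Slide and region nearly coincided, since C1 to C4 filled 1 slide. On the slide that held Co5 to Co8, and so both regions, Co5 exceeded the mean of Co6 to Co8 by 3.36 for Slc6a5, 1.23 for Glra1, 0.46 for Slc6a9 and 0.14 for Glrb, and was below it for Glra2 (−0.97). Within the scan days the difference was 6.66 and 6.76 for Slc6a5 and 4.03 and 4.20 for Glra1. With the slide as a random block, only the call of Glrb was lost among the 5 (adjusted p = 0.0596). Markers of other cells and regions differed along the same axis, in both directions. All 3 oligodendrocyte markers (Mbp, Mog, Mag) were higher caudally, with a summed level of 160 to 249 times the 75th percentile against 52.5 to 165, as were all 4 astrocyte markers (Aqp4, Aldh1l1, Slc1a3, Gja1), with 29.6 to 47.2 against 22.2 to 40.7. The 4 cerebellar markers were higher as well, with 32.1 to 161 against 2.89 to 39.4, and so were the 4 markers of the caudal hindbrain, with 0.236 to 11.6 against 0.0296 to 0.350. Both choroid plexus markers and 1 of 2 of endothelium were higher too. Lower caudally were all 4 markers of hypothalamus, all 4 of cortex and hippocampus, 3 of 4 of striatum, 2 of 2 of microglia and 1 of 2 of GABA neurons. Of 3 markers of motor and cholinergic neurons 2 were higher and 1 lower. Of 4 olfactory bulb markers 1 was higher and 3 lower, of 4 thalamic ones 1 and 2, and of 4 of midbrain and raphe 2 and 2. No marker of these lists was at background in every fraction, and the part of these cells and regions in the members' differences was not tested.

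Along the dorsal to ventral axis, Slc6a5, Slc6a9, Glra1 and Glra2 were higher in h4 to h6 than in h1 to h3, and Glrb did not pass the test. These 4 of 5 stand against 7.40% of all tested probes called higher. In the H mouse Slc6a5 was −4.83, −2.98 and −2.51 in H1 to H3 and 0.33, 0.69 and −1.43 in H4 to H6. In the Ho mouse it was −4.77, −3.37, −3.10 and −2.12 in Ho1 to Ho4 and 0.01, 0.61 and −0.28 in Ho5 to Ho7. The groups did not overlap, and the highest level lay 1 slab above the most ventral one (H5 and Ho6) in both mice.

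The ventral difference of Slc6a5 was 3.14 ± 0.49 (log2, SE, 95% interval 2.15 to 4.13, adjusted p = 2.31e-05, limma), with 3.30 in H and 2.98 in Ho. Glra1 peaked in the same fractions, at −2.67 in H5 and −3.08 in Ho6, and fell back to −5.75 in H6 and −5.15 in Ho7. Its difference was 2.56 ± 0.38 (adjusted p = 1.21e-05), with 2.94 in H and 2.19 in Ho, and 0.98 with normexp and quantile normalization. The step from h5 to h6 dropped by 2.58 for Glra1, beyond the half-width of 1.34, and by 0.39 for Slc6a9, beyond 0.35.

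Slc6a9 was higher ventrally by 0.64 ± 0.10 (adjusted p = 2.73e-05), from 3.82 in H1 to 5.26 in H4 and H5, and from 3.39 in Ho1 to 5.34 in Ho6. Glra2 did not share the peak at h5. Its level was highest in the most ventral slab of both mice, at −0.04 in H6 and −0.11 in Ho7, against −1.80 in H1 and −2.44 in Ho1. Its difference was 0.88 ± 0.20 (log2, SE, 95% interval 0.48 to 1.29, adjusted p = 0.00203), with 1.23 in H and 0.54 in Ho, and the call was lost without mouse H (difference 0.54, adjusted p = 0.453). The ventral and dorsal arrays did not overlap for Slc6a5 and Glra2, which 4.09% of probes showed in this direction.

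Glrb differed by −0.10 ± 0.10 (95% interval −0.30 to 0.09, adjusted p = 0.633), and its lowest horizontal levels were 2.08 in H6 and 2.20 in Ho7. In the Ho series all ventral pairs lay on 1 slide and all dorsal ones on another, so that slide and region cannot be told apart there. On the H slide that held both, the mean of H4 to H6 exceeded H3 by 2.37 for Slc6a5, 1.32 for Glra1, 0.22 for Slc6a9 and 0.96 for Glra2. All 3 oligodendrocyte markers and all 4 hypothalamic markers (Hcrt, Pmch, Avp, Oxt) were also higher ventrally, with summed levels of 136 to 176 against 43.7 to 129 and of 1.17 to 76.2 against 0.191 to 0.306, whereas none of the 4 astrocyte markers passed the test. All 4 markers of midbrain and raphe (1.83 to 9.44 against 0.0972 to 2.49), all 3 of motor and cholinergic neurons (0.639 to 1.39 against 0.0303 to 0.336) and 3 of 4 of the caudal hindbrain (0.343 to 1.74 against 0.0341 to 0.212) were higher ventrally as well. So were 3 of 4 olfactory bulb markers, 3 of 4 of striatum and 2 of 2 of choroid plexus. All 4 cerebellar markers and 3 of 4 of cortex and hippocampus were lower ventrally, and of 4 thalamic ones 1 was higher and 1 lower. The part of the cells and regions of these lists in the members' differences was not tested.

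**Figure D2:**
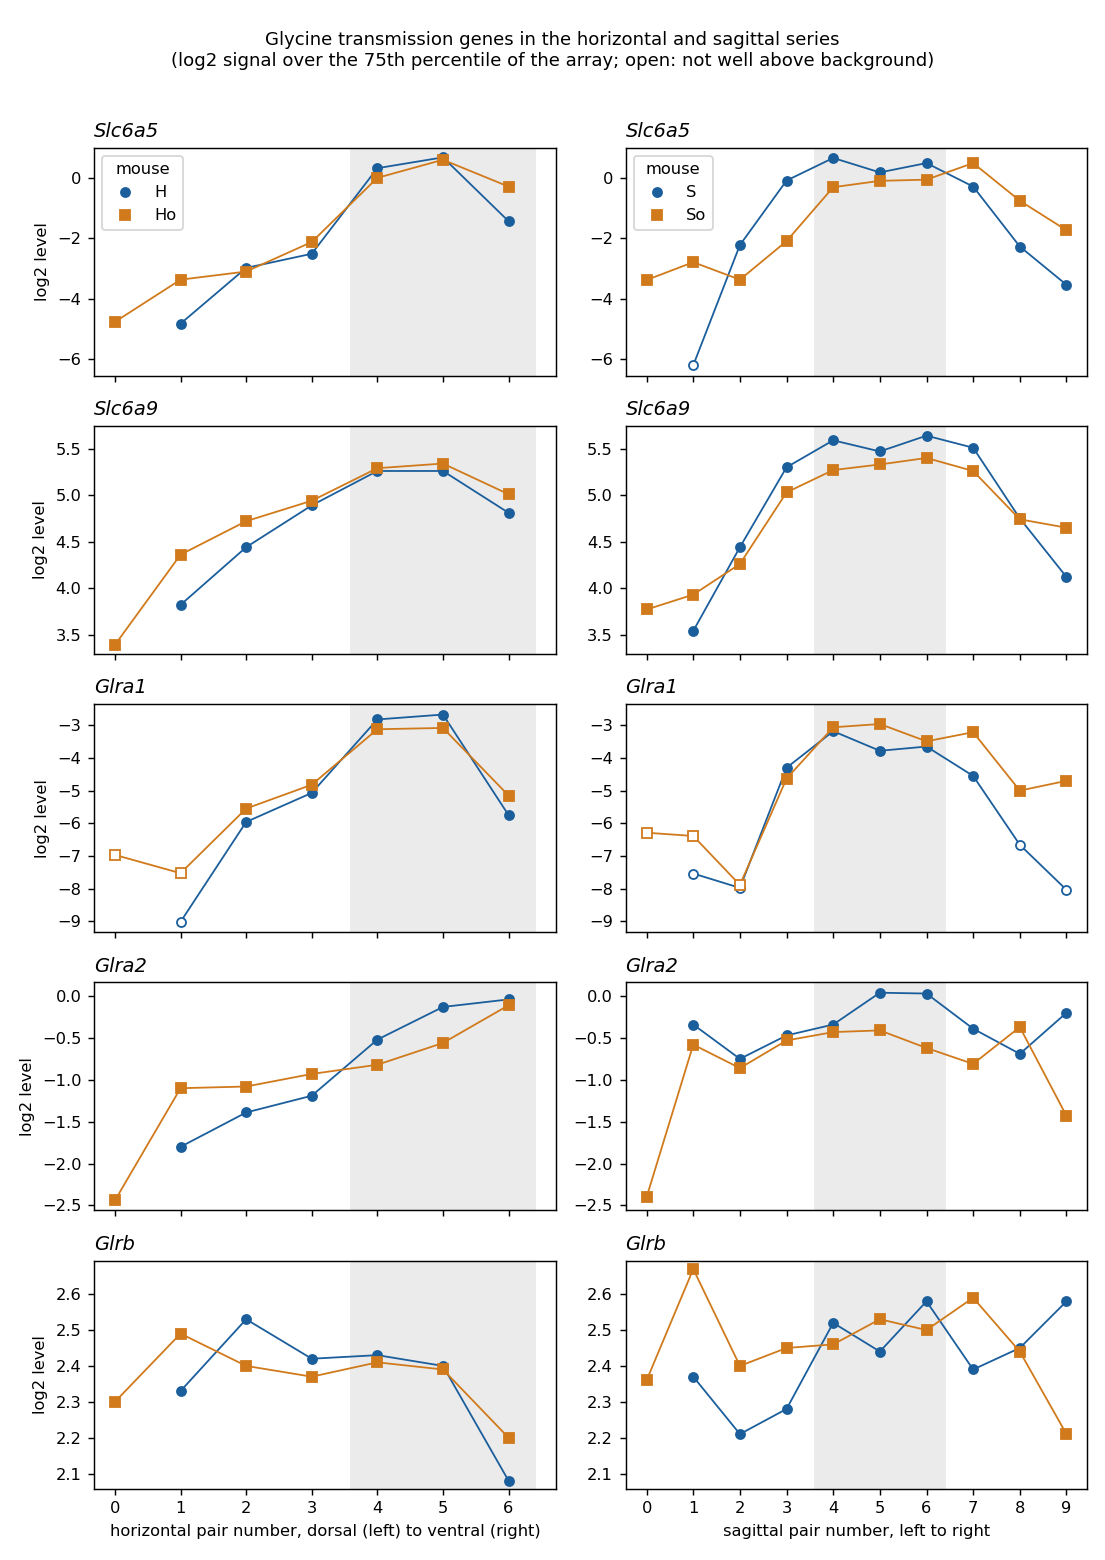
Level of each gene (log2 signal over the 75th percentile of the array, 1 scale per gene) against the horizontal pair number from dorsal to ventral (left panels, H and Ho) and the sagittal pair number from left to right (right panels, S and So), with orthogonal mice as blue circles, oblique mice as orange squares, open symbols for fractions not well above background, gray shading for the ventral and midline pairs, and the unpaired Ho1 and So1 at 0. Slc6a5 and Glra1 peak at h5 in the horizontal series. In the sagittal series both peak in shaded pairs, except Slc6a5 in So, which peaks at s7 (So8). Glra2 reaches its highest horizontal levels of −0.04 and −0.11 at h6.

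Across the sagittal series, Slc6a5, Slc6a9 and Glra1 were higher in the midline pairs s4 to s6 than in the 6 lateral pairs, 3 of 5 members against 7.59% of all tested probes called higher. Slc6a5 was −6.21, −2.22 and −0.08 in S1 to S3, 0.67, 0.19 and 0.50 in S4 to S6, and −0.28, −2.27 and −3.54 in S7 to S9. In So it was between −3.38 and −2.09 in So1 to So4, between −0.30 and 0.50 in So5 to So8, and −0.75 and −1.73 in So9 and So10. The So profile was thus shifted to the right of the S profile and less deep at the edges. The difference was 2.22 ± 0.42 (log2, SE, 95% interval 1.36 to 3.08, adjusted p = 2.99e-04, limma), with 2.89 in S and 1.56 in So. When fractions were paired by their own number, it was 1.85 and did not pass (adjusted p = 0.102), nor did s5 alone against the other pairs (difference 1.55, adjusted p = 0.261).

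Glra1 was higher at the midline by 2.55 ± 0.33 (adjusted p = 1.27e-06), with 2.97 in S and 2.13 in So, and 0.94 with normexp and quantile normalization. It was −3.18, −3.78 and −3.65 in S4 to S6 and −7.54, −7.98 and −8.04 in S1, S2 and S9, which with S8 were not well above background. In So, 6 fractions from So4 to So9 ranged from −5.00 to −2.96, So10 had −4.70, and So1 to So3 were not well above background. The step from s2 to s3 was 3.47 upward, and both arrays of s2 were not well above background (−7.98 in S2 and −7.89 in So3).

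Slc6a9 was higher at the midline by 0.82 ± 0.09 (adjusted p = 3.98e-08), with 0.96 in S and 0.69 in So, and its levels ran from 3.54 in S1 to 5.64 in S6 and back to 4.12 in S9. Glra2 differed by 0.33 ± 0.17 (95% interval −0.02 to 0.68, adjusted p = 0.239) and Glrb by 0.08 ± 0.08 (95% interval −0.09 to 0.25, adjusted p = 0.651). The sagittal edges therefore had low Slc6a5, Slc6a9 and Glra1 levels, while intervals for Glra2 and Glrb include 0. On the 4 slides that held midline and lateral fractions, the differences ranged from 0.61 to 2.53 for Slc6a5, 0.81 to 3.25 for Glra1 and 0.52 to 0.85 for Slc6a9, all above 0. Midline and lateral arrays overlapped for all 5 genes, and 0.928% of probes were without overlap in this direction. All 3 oligodendrocyte markers were higher at the midline, with summed levels of 154 to 215 against 55.2 to 218, and 1 of 4 astrocyte markers was, with 26.3 to 29.7 against 25.3 to 35.8. So were all 4 hypothalamic markers (12.4 to 31.1 against 0.223 to 10.4), all 4 markers of midbrain and raphe (6.01 to 11.1 against 0.232 to 4.25), 3 of 4 of the caudal hindbrain (0.945 to 1.96 against 0.0552 to 1.58) and all 3 of motor and cholinergic neurons (0.654 to 0.836 against 0.0378 to 0.908). All 4 olfactory bulb markers (2.81 to 9.31 against 0.424 to 6.09), 2 of 4 thalamic ones and 1 of 2 of GABA neurons were higher there too. Lower at the midline were 3 of 4 markers of cortex and hippocampus, 1 of 4 of striatum and 1 of 2 of microglia. The part of these cells and regions in the members' differences was not tested.

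**Figure D3:**
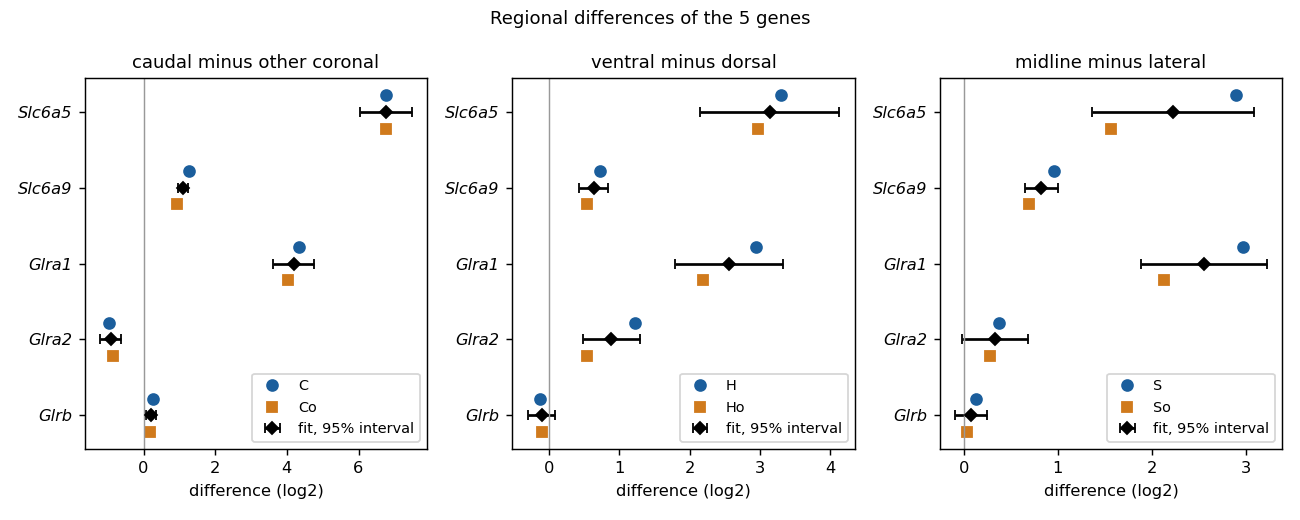
Difference in log2 level of each gene between the caudal and other coronal pairs, the ventral and dorsal horizontal pairs, and the midline and lateral sagittal pairs, with the fit of the 28 pairs as a black diamond with its 95% interval and the difference within each mouse as a blue circle or orange square. Slc6a5 and Glra1 lie at 6.76 and 4.19 in the caudal panel, Glra2 at −0.91, and the intervals of Glrb include 0 in the ventral and midline panels.

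The mice of a plane differed in level for 3 of the 5 genes, against 63.2% of all tested probes. Glra2 was higher in Co than in C by 0.40 (adjusted p = 0.00229, limma) and Glrb was lower in Co, with a difference of −0.27 (adjusted p = 8.65e-06), in a comparison that called 53.5% of probes. Glrb was lower in Co in all 12 coronal pairs measured in both mice. Glra1 was higher in So than in S by 0.93 (adjusted p = 0.00888), where 30.2% of probes were called. Each side of these comparisons is 1 mouse with its own cutting angle, which cannot be told apart. C and Co shared no slide or scan day, S and So shared them only through S1, and H and Ho shared the scan day. With the scan day in the fit, So minus S rests on pair s1 alone and was 1.15 for Glra1 (adjusted p = 0.736, limma). No member passed limma's test with the slide as a random block (1 of 5 at an unadjusted p under 0.05). The caudal, ventral and midline differences of the 5 genes were set against each other between the mice in 15 tests, of which limma called 0. At an unadjusted p under 0.05 there were 2, and an ANOVA without moderation gave 0 and 2. The lowest adjusted p was 0.0869 for Slc6a9 in the caudal comparison, where 7.48% of probes were called, and 0.140% and 0.0109% were in the ventral and midline comparisons.

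The profiles of the members resembled each other to different degrees over the 61 fractions, which share mice and slides, so that r is given as a description. Slc6a5 and Glra1 had r = 0.834, with 0.863 to 0.957 within the 6 series. Slc6a9 had r = 0.771 with Glra1 and r = 0.675 with Slc6a5. Glra2 had r = 0.0227 with Slc6a5 over all fractions, which joined −0.620 in C and −0.335 in Co with 0.869 in H and 0.832 in Ho. The sign of r thus differed between these planes, below 0 in C and Co and above 0 in H and Ho. The coronal profiles were not simply opposite. Glra2 was also low at the rostral end, with pair means of −1.43 at c12 and −2.13 at c13, where Slc6a5 was near the limit of the array.

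The genes most like each member were searched among 15526 genes. Closest to Slc6a5 were Uts2, which encodes the peptide urotensin 2 (r = 0.928), the NMDA receptor subunit gene Grin3b (0.927), the hindbrain patterning gene Hoxb2 (0.923), Lingo4 (0.919) and Lpo (0.913). Closest to Glra1 were the ATP-gated channel gene P2rx5 (0.945), Mab21l2 (0.941), Rimkla (0.937), Grin3b (0.931) and Ttc39a (0.927). Grin3b was therefore on both lists. Of these genes, Uts2 was well above background in 36 of 61 fractions and Hoxb2 and Mab21l2 in 40 each. Their r therefore includes levels near the limit of the array. Closest to Slc6a9 were Cyp27a1 (0.945), Osbpl9 (0.942), Nxph4 (0.941), Rassf8 (0.937) and Bbox1 (0.937). Likeness was weaker for Glra2, led by Cdh13 (0.824), Ocrl (0.823), P4ha2 (0.797), Bbs9 (0.788) and the κ opioid receptor gene Oprk1 (0.784), and for Glrb, led by Hapln4 (0.869), Usp33 (0.867), Rassf5 (0.856), Dhdds (0.850) and Mthfd1l (0.831). Within single series, r for Cdh13 went down to 0.160 and for Hapln4 to −0.0323.

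Other genes of glycine transmission and metabolism did not share the caudal excess of Slc6a5 in size. Of 12 listed genes, 11 had a matched probe, and Amt had none. In the caudal comparison 4 were higher and 1 was lower, against 31.1% and 20.6% of all tested probes, and 6 did not pass, with a median difference of 0.08 against 0.13 for all tested probes. Slc7a10, the alanine, serine and cysteine transporter Asc-1, which also carries glycine, was higher by 0.96 ± 0.06 (adjusted p = 4.19e-14), with 0.96 in C and 0.95 in Co. Its level was 3.33 in C1 and 3.47 in Co1, against 1.69 in C11 and 1.30 in Co12. The mitochondrial serine hydroxymethyltransferase gene Shmt2 was higher by 0.40 ± 0.06 (adjusted p = 5.30e-06).

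Gldc, the decarboxylase of the glycine cleavage system, was lower caudally, with a difference of −0.93 ± 0.09 (adjusted p = 1.66e-10). It was −1.64 in C1 and −1.80 in Co1, and 1.59 in C12 and 1.49 in Co15. Its partners in the same enzyme complex gave 0.20 ± 0.06 for Gcsh (adjusted p = 0.00449) and 0.21 ± 0.07 for Dld (adjusted p = 0.0182), whose other probe gave 0.13 (adjusted p = 0.354). The median of all tested probes was 0.13, and 0.01 with median scaling.

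The vesicular transporter gene Slc32a1, which serves glycine and GABA neurons alike, did not pass in the caudal comparison (0.08 ± 0.07, adjusted p = 0.300), nor did the gephyrin gene Gphn (0.02 ± 0.10, adjusted p = 0.906) or the chloride extruder gene Slc12a5 (−0.02 ± 0.05, adjusted p = 0.769). Slc32a1 was higher ventrally by 0.46 (adjusted p = 3.93e-04) and at the midline by 0.39 (adjusted p = 4.54e-04). The receptor subunit gene Glra3 was well above background in 28 of 61 fractions and Glra4 in 16. Glra4 had its highest levels at the olfactory end, at −4.46 and −4.07 in C12 and C13 and −3.88, −4.13 and −3.98 in Co14 to Co16, where Glra2 and Glrb were low, and it was between −8.70 and −4.97 in the other coronal fractions. Shmt1 gave 0.22 (adjusted p = 0.167) with the brighter probe and 1.03 (adjusted p = 4.93e-07) with the other, so its direction is shared but its call depends on the probe.

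**Figure D4:**
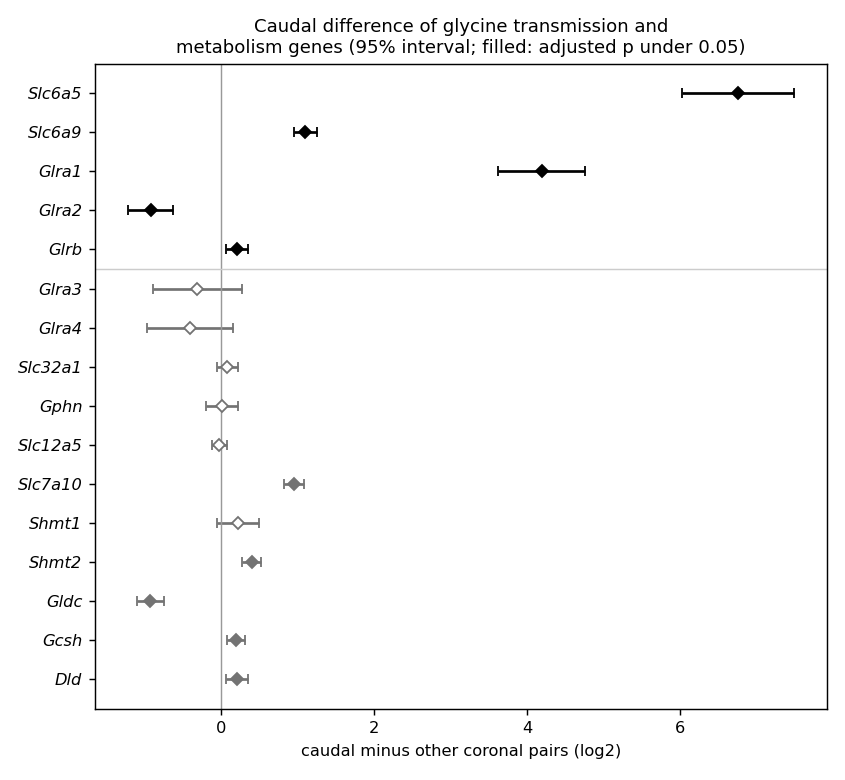
Difference in log2 level between the caudal pairs c1 to c4 and the other coronal pairs for the 5 genes (black) and 11 other genes of glycine transmission and metabolism (gray), as a diamond with its 95% interval, filled where adjusted p was under 0.05. Slc6a5 at 6.76 and Glra1 at 4.19 lie beyond all others, which range from −0.93 for Gldc to 1.10 for Slc6a9.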

How the data were processed

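Total RNA of each fraction was labeled with Cy3 and hybridized to Agilent whole mouse genome arrays. The authors deposited spot intensity from Agilent Feature Extraction 9.1.3.1, background-subtracted by that software and not normalized between arrays, and a table of intensity normalized per array. Here, outlier-flagged spots were left out, log2 values of the processed intensity were averaged per probe and reduced by the 75th percentile of the array over 41174 non-control probes. A probe was tested when well above background on at least 1 array. The number of mice and arrays limits the precision. With limma 3.58.1 in R 4.3.3, the 56 paired arrays were fitted as 28 pairs (moderated F test, contrasts, Benjamini-Hochberg adjustment, two-sided, threshold 0.05), as the methods use an ANOVA over these pairs. Differences between the mice, and their regional differences within pairs, were tested likewise, and the code was tested on simulated data. Pairs combine 2 mice, so the spread includes animals, cutting angle and batch. Arrays of a series come from 1 mouse, and their deviations from the pair means had r = 0.279 in the median of 129 same-mouse combinations. The fit takes these arrays as independent. Its SE, intervals and p therefore do not measure how a regional difference varies between animals. The genes named are the 5 members, listed pathway genes, position and cell type markers, and the 5 genes with the highest r per member. Where a gene has several probes, the brightest was used. Some listed genes are not reported here. The members and lists were chosen with earlier results of these data known. The 5 unpaired fractions entered only profiles and r. Alternatives covered scaling, the authors' table, normexp with an offset of 50, a floor of 5, filters, blocks, pairing, boundaries, moderation, threshold, planes and left-out arrays or mice. Region boundaries without c12 and c13, unscaled signal, steps between neighbors, and slide with mouse blocks were chosen after seeing the data.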

Additional observations from a re-analysis of the deposited data

Results flagged for a closer look

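Co1, a fraction without a partner in C that entered no test, was above every other fraction of its series for Slc6a9, at 6.18, and for Glrb, at 2.50. Co2 gave 6.09 and 2.40. In the means of the 6 mice over their fractions, no gene had a mouse whose gap to the next, divided by the range, passed Dixon's limit of 0.625. The planes weight regions differently and each has 2 mice, so that this comparison cannot single out a mouse. For Slc6a5 the means were −3.45 in C and −3.60 in Co, and between −1.86 and −1.40 in the others.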

How the results depend on the processing

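With the mouse as a replicate block, 5 genes varied over the pairs, Glrb included, against 4 without the block, and the number of regional calls was the same (5 caudal, 4 ventral, 3 midline). Of 428 values of single genes under the alternatives, 0 reversed, 17 no longer passed the test, 10 of them the caudal difference of Glrb, and 3 passed it newly. Among probes well above background on all arrays, only Slc6a9 and Glra2 remained testable, and 2 varied, 2 differed caudally, 2 ventrally, 1 at the midline and 1 between mice. Glrb dropped out there only through its left-out spot on Co7. With the slide as a random block, 0 genes differed between the mice (limma, 1 at an unadjusted p under 0.05). Without scaling, 2 passed ventrally. The sagittal pairs alone gave 2 genes that varied. Leaving out mouse C or Co gave 0 genes that differed between the mice. Co minus C then cannot be estimated, and Glra1 missed the joint test (adjusted p = 0.0656) but not that of So minus S alone (0.0335, limma). Over all left-out mice and arrays this count ranged from 0 to 3. Leaving out S or So, or S9 or So10, gave 1 gene whose regional difference differed between the mice, Slc6a9 in the caudal comparison (adjusted p = 0.0130 without the mouse and 0.0328 without the fraction, limma), against 0 otherwise. Without C1, C2, C3 or C4, 4 genes differed caudally. Of the 25 entries on the lists of genes most like a member, 13 stayed among the closest with values centered within each series and 19 with the authors' values. The members have 1 probe each, so other probes gave no value, and the scan day was fitted between mice for So minus S alone (lowest adjusted p of a member 0.135, limma).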
